A study of Mus musculus with 6 samples.

Results

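The genes described here are 33 markers of mature blood cells, chosen by name: 4 genes of neutrophil primary granules, 4 of secondary granules, 3 other neutrophil genes, 3 genes of monocytes and other myeloid cells, 6 of T cells, 4 of natural killer (NK) cells, 5 of B cells, and 4 of mast cells and basophils. Of these, 32 had a row among the 24110 genes of the table, and Ly6g was not analysed here. The mean over all libraries reached 10 scaled counts for 29 of the 32, and these 29 were tested. Ebf1, Pax5 and Ms4a1 fell below it, with means of 6.40, 0.833 and 5.30, and the members nearest above it were Klrd1 and Cd5, with means of 10.8 and 12.5.

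Hematopoietic stem cells sustain every blood lineage for life. They were sorted here from marrow of C57BL/6 mice as cells without lineage proteins and CD48 and with Sca-1 and CD150. In Prmt5 KO mice both alleles of Prmt5, an arginine methyltransferase, had been deleted from the floxed form (Prmt5Δ/Δ). Prmt5 fl/fl mice, their littermates of matched sex, kept the floxed alleles intact. All cells were taken 7 days after induction, each library held cells pooled from 2 mice, and each group had 3 libraries. The sources used here do not give the Cre driver, the inducing agent, whether fl/fl mice received it, or the ages. All values are RNA read counts per gene scaled to a common total of 44704636, called scaled counts, so that 1 read is worth 1.00 to 1.18 scaled counts.

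Neutrophils build their granules in waves as they mature in the marrow. Enzymes of the primary granules are made first, by promyelocytes, and proteins of the secondary granules later, by myelocytes, while S100A8 and S100A9 fill the cytosol of mature cells. Lineage depletion before a stem cell sort removes cells that carry surface proteins of mature lineages, and markers such as these are commonly read as a check of that step. Stem cells are also known to carry low levels of RNA of genes used later by single lineages.

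The libraries held 37834096 to 41812565 reads in genes for Prmt5 KO and 42213314 to 44704636 for Prmt5 fl/fl. Prmt5 itself was at 897 to 1056 scaled counts in the KO libraries, against 6010 to 6076 in the fl/fl libraries, so all 6 matched their labels. Among genes of the sort, Slamf1, which encodes CD150, was at 2731 to 3408 scaled counts in KO and 3127 to 4489 in fl/fl. Ly6a, which encodes Sca-1, was at 5367 to 9401 in KO and 4969 to 8266 in fl/fl. Cd48, whose protein was sorted against, was at 492 to 676 in KO and 446 to 757 in fl/fl. Kit, the receptor of stem cell factor, is not named in the sort and was at 34149 to 44343 in KO and 19323 to 56475 in fl/fl. The 12 genes listed for the stem cell phenotype summed to 97358, 115632 and 100500 scaled counts in KO replicates 1 to 3, and to 115034, 134868 and 95016 in fl/fl replicates 1 to 3.

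A pair of libraries stood apart by high values in the marker genes, and fold changes that rest on them are also given without them. KO replicate 3 gave 2.71% of its reads to the 32 members, against 0.329% and 0.247% in KO replicates 1 and 2, and 0.720%, 0.286% and 0.160% in fl/fl replicates 1 to 3. Of the 29 tested members, 18 were highest in KO replicate 3 and 7 in fl/fl replicate 1. Over all 14113 genes tested, 15.5% were highest in KO replicate 3 and 11.2% in fl/fl replicate 1. KO replicate 3 was over 2-fold above every other library for 15 of the 29 members, against 2.66% of all genes tested. Fl/fl replicate 1 was so for 6 members, against 0.609% of all genes tested. Cd3e, Cd3g, Cd3d, Cd2, Cd5 and Klrd1 reached the mean of 10 only through KO replicate 3, so the filter fixed where they were highest. The count of 18 includes all of them, and the count of 15 all but Klrd1. Fl/fl replicate 3 was highest for 3 of the 29 members and lowest for 8, against 34.6% and 31.0% of all genes tested. Over all genes tested, both shares were larger than those of any other library. The members also spread more widely than genes at large. The median range over the 6 libraries was 4.88 on the log2(value + 1) scale for the tested members and 0.852 for all tested genes.

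**Figure D1:**
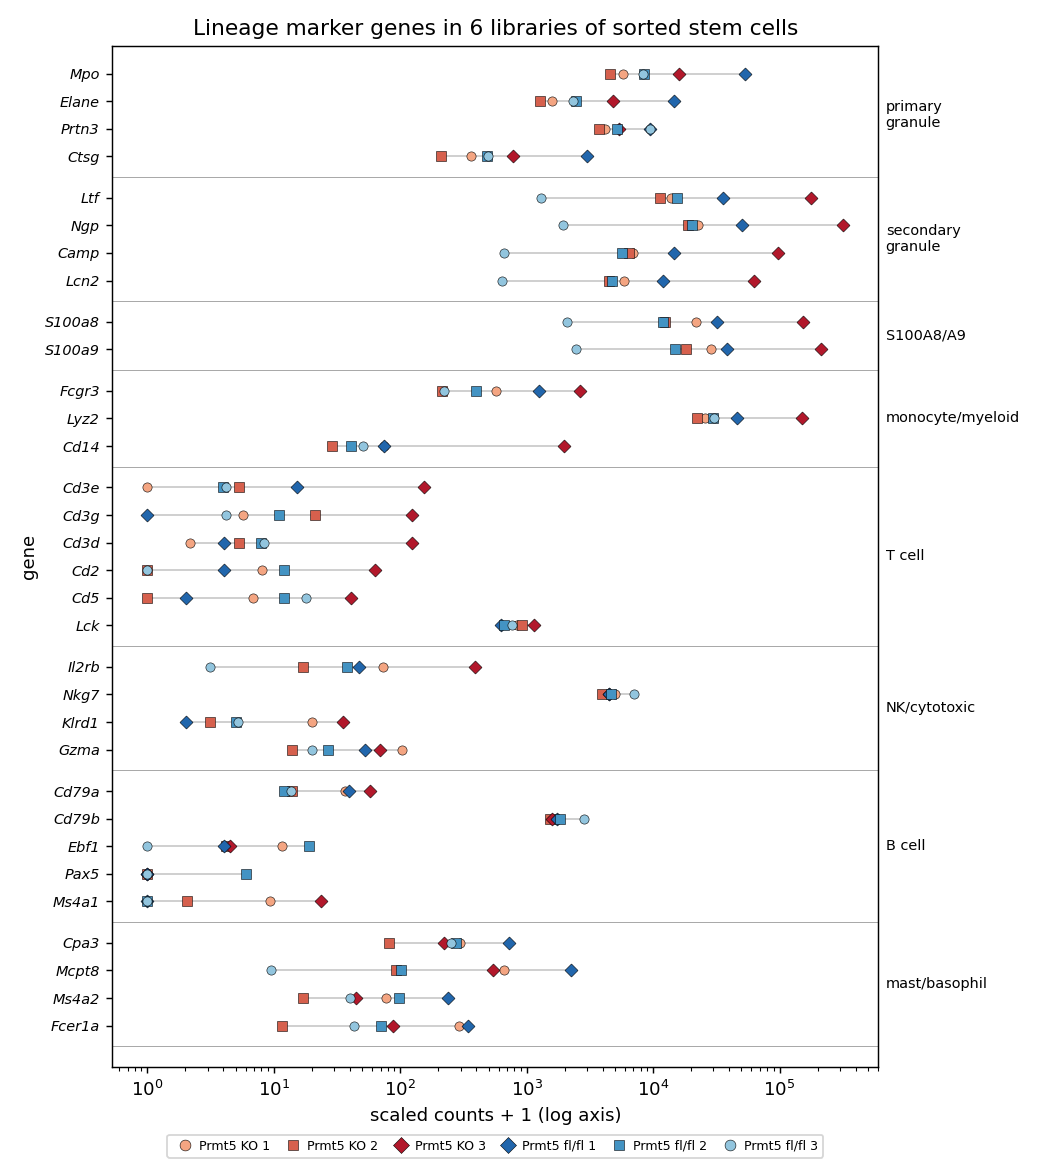
Scaled counts plus 1 of the 32 members (log axis) in each of the 6 libraries, with KO replicates in red and fl/fl replicates in blue, and a grey line over the range of each gene. KO replicate 3 (dark red diamonds) lies furthest right for the secondary granule, S100A8/A9, myeloid and T cell genes, and fl/fl replicate 1 (dark blue diamonds) for Mpo, Elane, Ctsg and the 4 mast cell and basophil genes.

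The secondary granule genes separated libraries more than genotypes. Ngp, which encodes neutrophilic granule protein, was at 22459, 18792 and 319228 scaled counts in KO replicates 1 to 3, against 50434, 20369 and 1940 in fl/fl replicates 1 to 3. Ltf, which encodes the iron-binding protein lactoferrin, was at 13761, 11249 and 176060 in KO, against 35634, 15367 and 1303 in fl/fl. KO replicate 3 was the highest of the 6 libraries and fl/fl replicate 3 the lowest for both genes, and the groups overlapped. Camp, the precursor of the antimicrobial peptide cathelicidin, was at 6880, 6503 and 97711 in KO, against 14649, 5727 and 663 in fl/fl. Lcn2, which encodes lipocalin 2, a binder of bacterial siderophores, was at 5912, 4466 and 62502 in KO, against 11937, 4770 and 632 in fl/fl. The order was the same for all 4 genes at both ends, with KO replicate 3 first, fl/fl replicate 1 next and fl/fl replicate 3 last.

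The 3 genes Camp (chr9:109847379-109849617), Ngp (chr9:110419747-110423012) and Ltf (chr9:111019271-111042767, all GRCm38/mm10) lie along 1 stretch of chromosome 9, with gaps of 570130 bases between Camp and Ngp and 596259 between Ngp and Ltf, while Lcn2 (chr2:32384633-32388252) is on chromosome 2. The 250 bases before the RefSeq start of these 4 genes are shown because the 4 moved together across libraries, and those of Mpo and Elane because they moved together in another order. Each line gives the strand of the gene, 5′ to 3′, from RefSeq on GRCm38.p6. Capitals mark matches to TTNNGNAA, the core of sites for C/EBP factors, and to GAGGAA, a core of sites for PU.1, on either strand, and no match to the first overlapped a match to the second in the promoters shown.
Ngp, chr9:110419558-110419807, plus strand: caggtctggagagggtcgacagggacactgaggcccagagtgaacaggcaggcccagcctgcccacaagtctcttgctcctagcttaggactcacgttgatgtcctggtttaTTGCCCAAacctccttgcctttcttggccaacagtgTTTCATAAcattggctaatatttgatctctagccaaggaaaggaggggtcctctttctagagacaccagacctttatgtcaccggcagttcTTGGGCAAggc
Camp, chr9:109849457-109849706, minus strand: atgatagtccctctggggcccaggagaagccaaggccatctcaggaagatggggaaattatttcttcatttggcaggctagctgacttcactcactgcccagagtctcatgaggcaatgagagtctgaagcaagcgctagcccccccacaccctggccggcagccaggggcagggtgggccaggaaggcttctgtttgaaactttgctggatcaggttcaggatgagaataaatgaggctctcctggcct
Ltf, chr9:111019042-111019291, plus strand: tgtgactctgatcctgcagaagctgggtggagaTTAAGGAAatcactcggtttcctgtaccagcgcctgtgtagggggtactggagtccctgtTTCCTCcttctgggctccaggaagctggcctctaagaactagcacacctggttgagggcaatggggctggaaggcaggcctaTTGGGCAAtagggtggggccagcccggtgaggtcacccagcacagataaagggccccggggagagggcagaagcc
Lcn2, chr2:32387740-32387989, minus strand: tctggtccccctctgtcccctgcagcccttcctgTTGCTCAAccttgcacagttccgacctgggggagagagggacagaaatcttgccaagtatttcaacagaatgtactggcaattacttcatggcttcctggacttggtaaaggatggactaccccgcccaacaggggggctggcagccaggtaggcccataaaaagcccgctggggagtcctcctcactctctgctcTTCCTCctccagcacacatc
Mpo, chr11:87793534-87793783, plus strand: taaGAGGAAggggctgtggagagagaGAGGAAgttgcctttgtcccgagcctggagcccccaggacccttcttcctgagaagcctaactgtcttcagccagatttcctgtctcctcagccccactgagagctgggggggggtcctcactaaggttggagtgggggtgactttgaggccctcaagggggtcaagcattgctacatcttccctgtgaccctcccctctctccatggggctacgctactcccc
Elane, chr10:79886062-79886311, plus strand: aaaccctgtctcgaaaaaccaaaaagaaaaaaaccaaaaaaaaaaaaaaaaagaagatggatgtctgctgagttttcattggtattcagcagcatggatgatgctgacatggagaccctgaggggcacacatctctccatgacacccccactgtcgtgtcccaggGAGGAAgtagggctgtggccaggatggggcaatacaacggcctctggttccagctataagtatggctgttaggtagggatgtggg
A C/EBP core was found in 3 of the 4 secondary granule promoters, with 3 matches in Ngp, 2 in Ltf, 1 in Lcn2 and 0 in Camp. It was found in 0 of the 4 primary granule promoters. Of all 32851 promoters in the table, 36.9% held this core. The PU.1 core was found in all 4 primary granule promoters and in 2 of the 4 secondary granule promoters, against 23.3% of all promoters. A match is a description of these letters in this window and not a measured binding site.

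S100a8 and S100a9, whose proteins form calprotectin, followed the secondary granule genes. S100a8 (chr3:90668978-90670035) was at 21757, 12316 and 153117 scaled counts in KO replicates 1 to 3, against 31873, 12024 and 2096 in fl/fl replicates 1 to 3. S100a9 (chr3:90692632-90695721), 22597 bases away on the other strand, was at 28576, 18171 and 211095 in KO, against 38708, 14850 and 2476 in fl/fl. Per length of the gene these were the members with the highest mean level over the 6 libraries, at 99142 and 99833 scaled counts per kilobase, above 99.97% and 99.98% of the 17876 genes detected. Ngp followed with a level of 62191 per kilobase, Lyz2 with 48065 and Camp with 36765. These means were raised by KO replicate 3, where all of these genes were highest, and are not typical of single libraries. S100a8 and S100a9 held 0.815% of the reads of KO replicate 3 and 0.0102% of those of fl/fl replicate 3. Together the 4 secondary granule genes and these S100 genes held 0.222%, 0.160% and 2.28% of the reads of KO replicates 1 to 3, against 0.410%, 0.164% and 0.0204% of those of fl/fl replicates 1 to 3.

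None of these 6 genes passed the test between genotypes. The log2 fold changes, KO over fl/fl, were 2.03 ± 1.41 for Ngp, 1.75 ± 1.41 for Ltf, 2.10 ± 1.36 for Camp, 1.84 ± 1.28 for Lcn2, 1.89 ± 1.17 for S100a8 and 2.09 ± 1.17 for S100a9 (standard error; limma, adjusted p = 0.392 to 0.541). Without KO replicate 3 the differences shrank to 0.48 to 1.02, and without fl/fl replicate 3 to 0.36 to 1.00, while without fl/fl replicate 1 they were 2.75 to 3.07 (limma, adjusted p = 0.26 to 0.899 over these fits). With both KO replicate 3 and fl/fl replicate 1 left out, which sets 2 libraries against 2, they were 1.48 to 1.91 (limma, adjusted p = 0.484 to 0.621). Between libraries that share a title prefix, the differences went in opposite directions. Ngp had a log2 difference of -1.17 in the replicate 1 pair, -0.12 in the replicate 2 pair and 7.36 in the replicate 3 pair. In a bulk library, more cells of a type and more RNA per cell cannot be told apart.

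The primary granule genes had another order of libraries. Mpo, which encodes myeloperoxidase, was at 5828, 4549 and 15944 scaled counts in KO replicates 1 to 3, against 53564, 8488 and 8340 in fl/fl replicates 1 to 3. Elane, neutrophil elastase, was at 1583, 1264 and 4843 in KO, against 14623, 2437 and 2334 in fl/fl. Ctsg, the protease cathepsin G, was at 360, 207 and 781 in KO, against 3002, 485 and 492 in fl/fl. All 3 were highest in fl/fl replicate 1 and next in KO replicate 3, and fl/fl replicate 3, the lowest library for the secondary granule genes, was close to fl/fl replicate 2. Prtn3, proteinase 3, was at 4132, 3760 and 5387 in KO, against 9448, 5167 and 9527 in fl/fl. It lies 3073 bases before Elane on chromosome 10 (chr10:79874476-79883174) but did not share its order, being as high in fl/fl replicate 3 as in fl/fl replicate 1. Exons of Prtn3 overlap those of Plppr3, Mpo those of Gm11505 and Cd3e those of Gm48719, each on the opposite strand. Because the libraries carried no strand information, reads in these overlaps cannot be assigned to either gene.

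Prtn3 had the lowest p of the 29 tested members and did not pass the threshold. It averaged 4426 ± 852 scaled counts in KO and 8047 ± 2495 in fl/fl (SD, n = 3 each), and its log2 fold change was -0.82 ± 0.26 (standard error; limma, adjusted p = 0.169). The fold stayed between -1.12 and -0.68 with any single library left out, and the adjusted p was 0.0725 to 0.460 over the alternatives run. The KO range reached the fl/fl range at a single point, where KO replicate 3 was above fl/fl replicate 2. Mpo, Elane and Ctsg had log2 fold changes of -1.05 ± 0.77, -1.03 ± 0.78 and -1.20 ± 0.77 (standard error; limma, adjusted p = 0.450 to 0.516). These differences were -0.16, -0.16 and -0.33 without fl/fl replicate 1 and -1.60, -1.63 and -1.71 without KO replicate 3 (limma, adjusted p = 0.462 to 0.89). With both libraries left out they were -0.71, -0.75 and -0.84 (limma, adjusted p = 0.384 to 0.487). Without fl/fl replicate 3 alone they were -1.51, -1.48 and -1.63 (limma, adjusted p = 0.265 to 0.310).

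**Figure D2:**
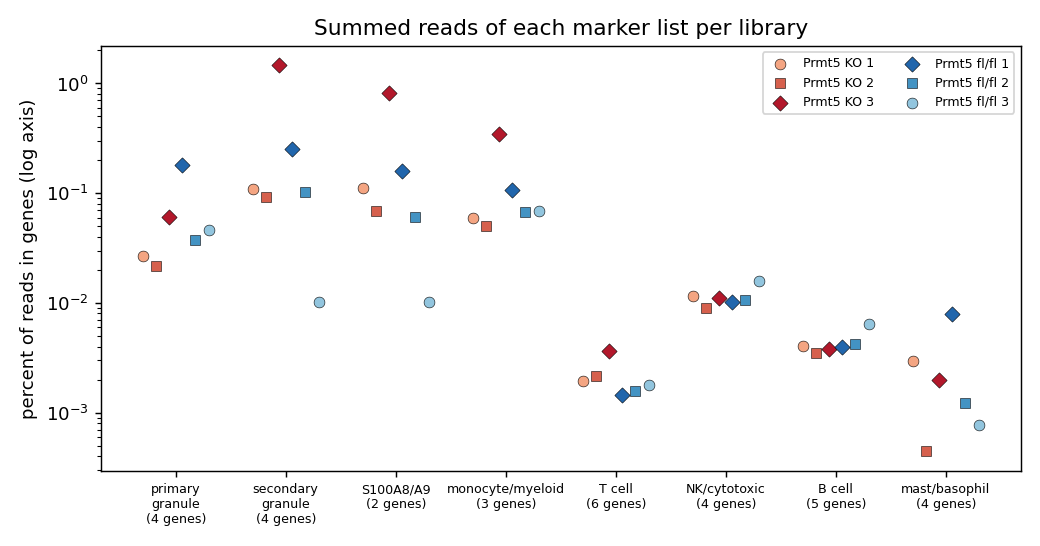
Percent of all reads in genes (log axis) that fell on the measured members of each marker list, 1 point per library, KO replicates in red and fl/fl replicates in blue. The secondary granule genes took 1.47% of KO replicate 3 and 0.0102% of fl/fl replicate 3, while the NK and B cell lists stayed within 0.00889% to 0.0158% and 0.00349% to 0.00639% of every library. Nkg7 made up 97.0% of the NK list and Cd79b 97.9% of the B cell list by mean level, so these ranges are mostly those of single genes.

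Ratios of counts within a library varied less for each pair read from the same wave than for Ngp and Mpo, which belong to different waves. Mpo had 3.68, 3.60 and 3.29 times the counts of Elane in KO replicates 1 to 3, against 3.66, 3.48 and 3.57 times in fl/fl replicates 1 to 3. This ratio differed at most 1.12-fold between libraries, although the counts of Mpo differed 11.8-fold. Mpo to Ctsg stayed within 16.2 to 21.9, a 1.36-fold span. Ngp to Camp stayed within 2.89 to 3.56 in all libraries, Ngp to Ltf within 1.33 to 1.81, and S100a9 to S100a8 within 1.18 to 1.48. Ngp to Lcn2 varied more, from 3.07 to 5.11, a 1.66-fold span. Across the waves, Ngp had 3.85, 4.13 and 20.02 times the counts of Mpo in KO, against 0.942, 2.40 and 0.233 times in fl/fl. That ratio spanned 86.1-fold. Within the primary granule list, Mpo to Prtn3 spanned 6.48-fold. Ratios of counts compare libraries with each other and not the level of these genes, which differ in length.

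**Figure D3:**
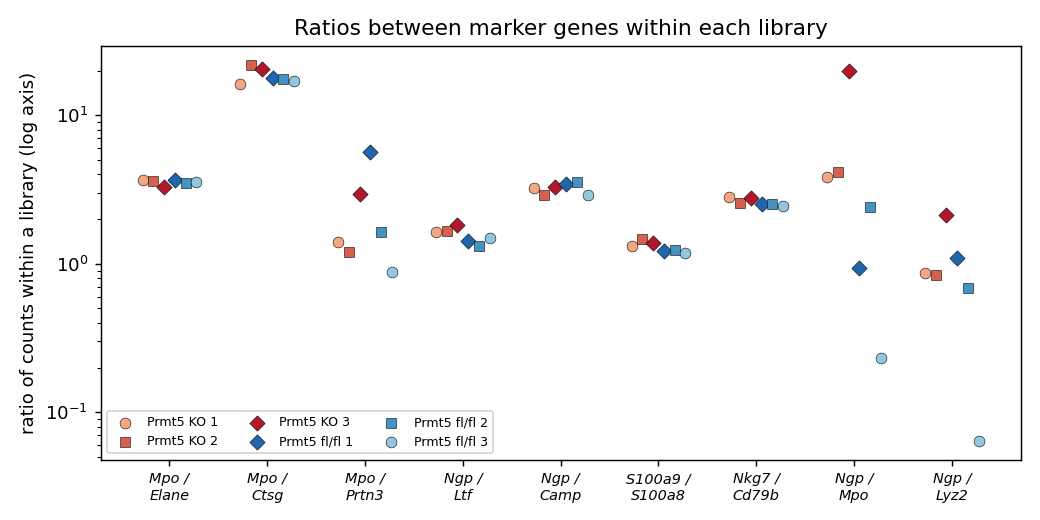
Ratio of the counts of 9 pairs of members within each library (log axis), KO replicates in red and fl/fl replicates in blue. Mpo to Elane and Nkg7 to Cd79b differ at most 1.14-fold between libraries, Ngp to Camp and S100a9 to S100a8 at most 1.25-fold, and Ngp to Mpo 86.1-fold.

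The myeloid markers were highest in KO replicate 3 and lay closer together elsewhere. Lyz2, lysozyme of macrophages and granulocytes, was at 25959, 22366 and 150277 scaled counts in KO replicates 1 to 3, against 46090, 29843 and 30296 in fl/fl replicates 1 to 3. Fcgr3, a low-affinity receptor for immunoglobulin G, was at 573, 214 and 2645 in KO, against 1244, 397 and 222 in fl/fl. Cd14, the co-receptor for lipopolysaccharide, was at 73.3, 27.8 and 1977 in KO, against 72.9, 40 and 49.8 in fl/fl. In KO replicate 3 Cd14 stood 27.0 times above the next library, a wider gap than for any other member. Unlike the secondary granule genes, Lyz2 in fl/fl replicate 3 was level with fl/fl replicate 2. The log2 fold changes of 0.36 for Lyz2, 0.52 for Fcgr3 and 1.59 for Cd14 missed the threshold (limma, adjusted p = 0.572 to 0.808). Without KO replicate 3 they were -0.52, -0.45 and -0.21 (limma, adjusted p = 0.406 to 0.897). With fl/fl replicate 1 left out as well, they were -0.32, 0.24 and 0.019 (limma, adjusted p = 0.528 to 0.993). Lyz2 has a near-identical neighbour, Lyz1, which was at 12.7 to 172 scaled counts, so reads shared by the genes make both values uncertain.

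The T cell list held 1 gene that was well detected in every library and 5 that were near the detection limit in most. Lck, a SRC family kinase that starts T cell receptor signaling, was at 839, 926 and 1134 scaled counts in KO replicates 1 to 3, against 630, 661 and 759 in fl/fl replicates 1 to 3. All KO values were above all fl/fl values. It averaged 966 ± 152 in KO and 683 ± 67.7 in fl/fl (SD, n = 3 each), and its log2 fold change was 0.49 ± 0.18 (standard error). Lck missed the threshold (limma, adjusted p = 0.212, with 0.0652 to 0.636 over the alternatives run). Lck was the only tested member whose groups did not overlap, 1 of 29 or 3.45%, against 28.2% of all genes tested.

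The subunits of the CD3 complex, which carries the T cell receptor signal, are encoded side by side on chromosome 9 and were far higher in KO replicate 3 than in any other library. Cd3e (chr9:44998740-45009627) was at 0, 4.28 and 154 scaled counts in KO replicates 1 to 3, against 14.2, 3.00 and 3.18 in fl/fl replicates 1 to 3. Cd3g was at 4.73, 20.3 and 124 in KO, against 0, 10 and 3.18 in fl/fl. Cd3d was at 1.18, 4.28 and 123 in KO, against 3.04, 7.00 and 7.41 in fl/fl. Values of 3.00 to 3.54 scaled counts stand for 3 reads in a library, so the CD3 genes were at 0 to 19 reads in the other 5 libraries. Cd2 and Cd5, surface proteins of T cells, reached 62.6 and 40.2 in KO replicate 3 and at most 11 and 16.9 elsewhere. The 5 genes other than Lck summed to 18.9, 28.9 and 503 in KO, against 21.3, 42.0 and 30.7 in fl/fl. Their log2 fold changes ran from -0.20 for Cd5 to 2.79 for Cd3g (limma, adjusted p = 0.319 to 0.955), and without KO replicate 3 those of Cd3e, Cd3d and Cd2 were below 0, at -1.46, -0.93 and -0.36 (limma, adjusted p = 0.68 to 0.938).

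Among the NK and cytotoxic genes, Nkg7 stood apart from its list. Nkg7, a membrane protein of cytotoxic granules, was at 4969, 3944 and 4465 scaled counts in KO replicates 1 to 3, against 4442, 4647 and 7020 in fl/fl replicates 1 to 3. Il2rb, the beta chain of the interleukin-2 and interleukin-15 receptors, was at 72.1, 16.0 and 389 in KO, against 46.6, 37.0 and 2.12 in fl/fl. Gzma, granzyme A, was at 103, 12.8 and 68.5 in KO, against 51.6, 26 and 19.1 in fl/fl. Nkg7 ranged 1.78-fold over the libraries and Il2rb 183-fold, with KO replicate 3 highest and fl/fl replicate 3 lowest. Klrd1, the CD94 subunit of NK receptors, did not exceed 34.3 in any library. Per length of the gene, the mean level of Nkg7 was above 96.4% of the genes detected, that of Il2rb above 33.1% and that of Klrd1 above 26.2%. Log2 fold changes were -0.24 for Nkg7, 2.14 for Il2rb, 0.60 for Gzma and 1.80 for Klrd1 (limma, adjusted p = 0.414 to 0.714). Dropping KO replicate 3 gave -0.25, 0.99, 0.31 and 1.08, and dropping fl/fl replicate 1 gave -0.36, 2.85, 0.99 and 1.35 (limma, adjusted p = 0.364 to 0.91). With both left out they were -0.37, 1.70, 0.70 and 0.63 (limma, adjusted p = 0.625 to 0.856). Over all single libraries left out, Il2rb ran from 0.89, when fl/fl replicate 3 was dropped, to 3.25, Gzma from 0.022 to 1.48, Klrd1 from 1.08 to 2.82 and Nkg7 from -0.36 to -0.033.

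The B cell list had the same shape, with a single gene well expressed. Cd79b, a signaling subunit of the B cell receptor, was at 1768, 1543 and 1597 scaled counts in KO replicates 1 to 3, against 1744, 1840 and 2846 in fl/fl replicates 1 to 3. Its partner Cd79a, which B cells make together with it, stayed at 12.8 to 56.7 in KO and 11 to 38.5 in fl/fl. The transcription factors Ebf1 and Pax5 and the surface protein Ms4a1 (CD20) did not exceed 22.4 in any library, and Pax5 had reads in 1 library. Ms4a1 was at 8.27, 1.07 and 22.4 in KO replicates 1 to 3, against 0 in all 3 fl/fl libraries. In KO replicate 3 Ebf1 was at 3.54 and Pax5 at 0, while Cd79a and Ms4a1 were at their highest there. Cd79b to Nkg7 kept a steady relation, Nkg7 having 2.47 to 2.81 times the counts of Cd79b in every library. The log2 fold changes were -0.36 for Cd79b and 0.72 for Cd79a (limma, adjusted p = 0.411 and 0.625). Cd79a was at 0.27 without KO replicate 3, 1.26 without fl/fl replicate 1 and 0.81 without both (limma, adjusted p = 0.399 to 0.909). Cd79b was at -0.34, -0.49 and -0.47 in those fits and at -0.13 when fl/fl replicate 3 was dropped (limma, adjusted p = 0.318 to 0.638).

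All 4 mast cell and basophil genes were highest in fl/fl replicate 1. Mcpt8, a protease of basophils, was at 659, 90.9 and 539 scaled counts in KO replicates 1 to 3, against 2225, 101 and 8.47 in fl/fl replicates 1 to 3. Cpa3, carboxypeptidase of mast cell granules, was at 295, 80.2 and 220 in KO, against 728, 276 and 251 in fl/fl. Fcer1a, the ligand-binding chain of the high-affinity receptor for immunoglobulin E, was at 289, 10.7 and 87.4 in KO, against 344, 70.0 and 42.4 in fl/fl. Fl/fl replicate 1 was followed by KO replicate 1 for Mcpt8, Cpa3 and Fcer1a. Ms4a2, the beta chain of that receptor, was at 75.6, 16.0 and 43.7 in KO, against 238, 97.0 and 39.2 in fl/fl. KO replicate 2 was the lowest library for all of these but Mcpt8, and the groups overlapped for all 4.

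The log2 fold changes of the mast cell and basophil genes were -1.09 for Cpa3, -1.34 for Ms4a2, -0.61 for Fcer1a and 1.31 for Mcpt8 (limma, adjusted p = 0.371 to 0.820). Without fl/fl replicate 1, where all 4 were highest, Cpa3 was at -0.60, Ms4a2 at -0.69 and Mcpt8 at 3.36 (limma, adjusted p = 0.235 to 0.634). Without KO replicate 3 the values were -1.26 for Cpa3, -1.44 for Ms4a2, -0.81 for Fcer1a and 0.93 for Mcpt8 (limma, adjusted p = 0.515 to 0.883). With both libraries left out they were -0.77, -0.80, 0.071 and 2.99 (limma, adjusted p = 0.497 to 0.989). The direction of Mcpt8 turned with the tool, at -0.79 by edgeR and -0.76 by DESeq2 (adjusted p = 0.812 and 0.856), and was -0.57 when fl/fl replicate 3 was dropped. Fcer1a turned to 0.27 once fl/fl replicate 1 was left out (limma, adjusted p = 0.919). The promoter of Ms4a2 is shown because the gene had 3 matches to AGATAA, a core of sites for GATA factors, on either strand within 250 bases of its start. Capitals mark these matches in the line below.
Ms4a2, chr19:11623720-11623969, minus strand, RefSeq on GRCm38.p6: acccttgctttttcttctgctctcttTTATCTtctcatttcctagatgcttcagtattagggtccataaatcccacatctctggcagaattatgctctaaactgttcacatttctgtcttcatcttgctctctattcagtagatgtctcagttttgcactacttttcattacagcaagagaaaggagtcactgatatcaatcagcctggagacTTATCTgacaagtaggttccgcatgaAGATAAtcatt
This core was found in 3 of the 4 mast cell and basophil promoters, against 9.99% of all promoters, and Mcpt8 was the gene without it.

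Red cell precursor genes moved with the primary granule and mast cell genes in fl/fl replicate 1, and their part in those values was not tested. The 10 genes of that list summed to 591, 329 and 722 scaled counts in KO replicates 1 to 3, against 7109, 1500 and 1964 in fl/fl replicates 1 to 3. All 6 members of it that were tested were highest in fl/fl replicate 1. Klf1, the transcription factor that drives red cell genes, was at 393, 253 and 311 in KO, against 2089, 872 and 1376 in fl/fl, a log2 difference of -2.11 (limma, adjusted p = 0.0476). That call was lost without KO replicate 3, without fl/fl replicate 1 and without both, at -2.10, -1.80 and -1.79 (limma, adjusted p = 0.194, 0.0988 and 0.351), and it held in 5 of 18 alternatives (adjusted p = 3.29e-07 to 0.351). With the replicate block its adjusted p was 0.161 (limma). Ermap, a red cell membrane protein, was at 57.9, 1.07 and 106 in KO, against 1596, 104 and 47.7 in fl/fl, and missed the threshold (limma, adjusted p = 0.393). The globin genes Hba-a1, Hba-a2, Hbb-bs and Hbb-bt were at 0 in every library.

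Of the 29 tested members, 0 passed the threshold between the genotypes, against 0.73% of all genes tested (103 of 14113, limma, adjusted p at most 0.05; 0.276% higher and 0.453% lower). At an unadjusted p of at most 0.05 limma counted 1 member higher, Lck, against 4.58% of all genes, and 1 lower, Prtn3, against 13.6%. In either direction 18.2% of all genes passed. EdgeR and DESeq2 on the recovered reads also called 0 members over all genes, where edgeR called 0.425% of all genes and DESeq2 6.95%. At an unadjusted p of at most 0.05 each tool had 4 members higher and 1 lower, against 6.08% of all genes higher and 11.3% lower by edgeR, and 8% higher and 10.7% lower by DESeq2. DESeq2 gave no adjusted p for 5 members. The count over all genes was 39 higher and 64 lower by limma, but 35 and 22 with median-of-ratios size factors, 35 and 32 with TMM factors and 34 and 26 by edgeR. Of the tested members 19 had a log2 fold change above 0, with a median of 0.60 beside -0.048 for all genes tested. Without KO replicate 3 there were 13 above 0 and the median was -0.25, and without fl/fl replicate 1 there were 20 and it was 1.19. With both libraries left out 0 members were called, 16 were above 0 and the median was 0.071.

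**Figure D4:**
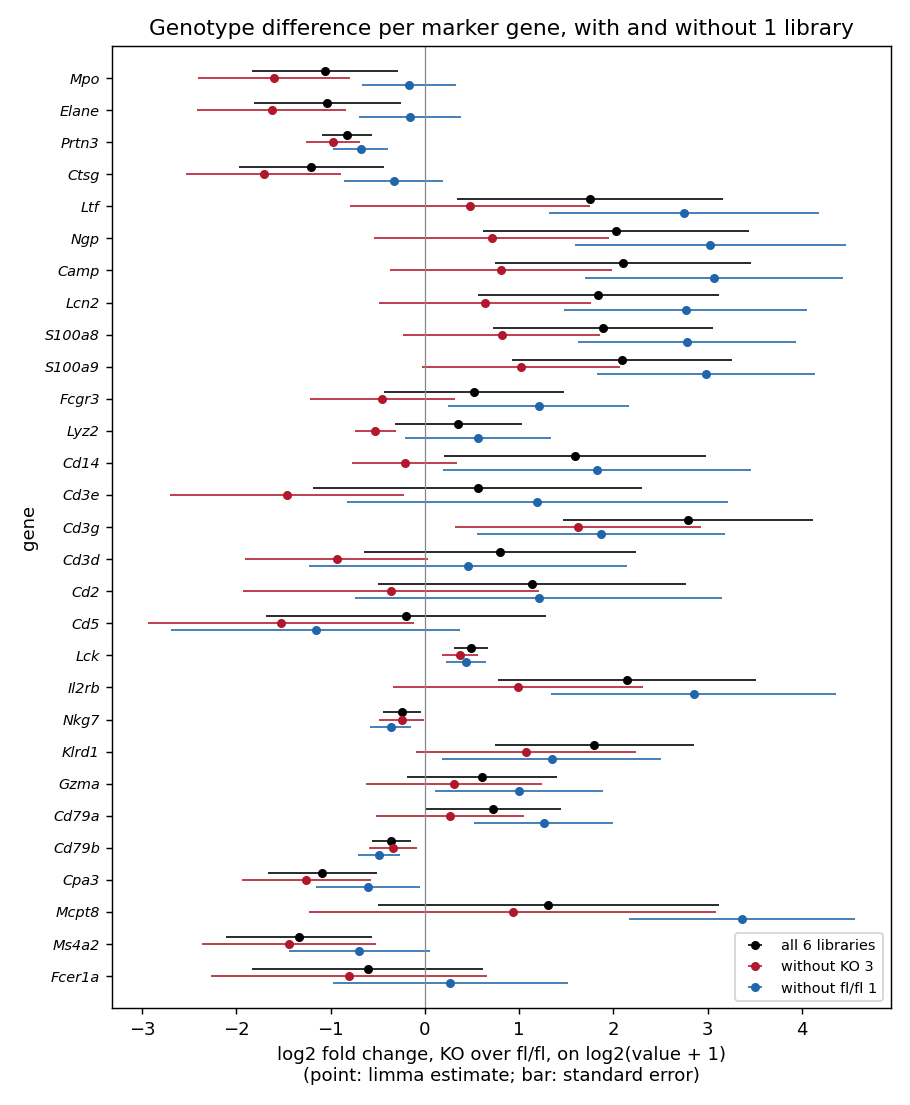
Log2 fold change, KO over fl/fl, of the 29 tested members on the log2(value + 1) scale, with the standard error from limma as bars, for all 6 libraries (black), without KO replicate 3 (red) and without fl/fl replicate 1 (blue). The secondary granule and S100 genes move left when KO replicate 3 is left out and right when fl/fl replicate 1 is, while Lck, Nkg7 and Cd79b hardly move.

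Further genes of these lineages followed the members' order of libraries in some lists and not in others. Of 16 further neutrophil genes, 15 were highest in KO replicate 3, and 0 passed the limma threshold between genotypes. Over all genes tested, 15.5% were highest in KO replicate 3 and 0.73% passed. These shares are to be set beside the counts in the lists below, which are too small to differ from 0.73% by having 0 called. Their median log2 fold change was 1.30, beside -0.048 for all genes, and it was 0.36 without KO replicate 3, 1.88 without fl/fl replicate 1 and 0.93 without both. Chil3, a chitinase-like secreted protein, was at 4628, 4500 and 68954 scaled counts in KO replicates 1 to 3, against 11651, 4467 and 732 in fl/fl replicates 1 to 3. Anxa1, annexin A1, was at 10732, 9227 and 56526 in KO, against 12801, 6835 and 8163 in fl/fl. Cebpe, the transcription factor required for secondary granules, was at 94.5, 71.6 and 1285 in KO, against 264, 74.0 and 12.7 in fl/fl, and was picked after its values were seen. Its order of libraries at both ends was that of Ngp.

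Of 15 further monocyte, macrophage and dendritic genes, 8 were highest in fl/fl replicate 1 and 3 in KO replicate 3, with a median log2 fold change of -0.69 and 0 called, whereas the 3 monocyte and myeloid members were all highest in KO replicate 3. That median was -0.94 when KO replicate 3 was dropped, -0.80 when fl/fl replicate 1 was and -1.03 when both were. Cd74, the invariant chain of MHC class II, was at 2190, 1923 and 4170 in KO, against 1478, 2006 and 2093 in fl/fl. Ly6c2, a surface protein of inflammatory monocytes, was at 811, 508 and 4442 in KO, against 4117, 1286 and 1459 in fl/fl. Of 13 further T cell genes tested, 9 were highest in KO replicate 3, and of 9 NK genes tested, 7 were, with 0 called in each list and median log2 fold changes of 0.65 and 1.38. Those medians were 0.15 and 0.77 without KO replicate 3, 0.55 and 1.51 without fl/fl replicate 1, and 0.049 and 0.74 without both. In these lists Cd8a, Cd8b1, Il7r, Bcl11b, Ncr1, Prf1 and Klrc1 reached a mean of 10 only through KO replicate 3. The filter thus fixed where those genes were highest. Of 10 further B cell genes tested, 0 were highest in KO replicate 3, 1 had a log2 fold change above 0 and 0 were called. Their median log2 fold change was -0.61, and it was -0.71 without KO replicate 3, -0.79 without fl/fl replicate 1 and -0.94 without both. Ccl5, a chemokine of T and NK cells, was at 328, 75.9 and 452 in KO, against 298, 211 and 471 in fl/fl. Cr2, a complement receptor of B cells, was at 49.2 to 75.6 in KO and 62.5 to 103 in fl/fl. As in the member lists, each had a gene that was well expressed in all libraries, Lat at 2001 to 2184 in KO and 2181 to 3671 in fl/fl, Ctsw at 606 to 703 and 493 to 773, and Cd37 at 2011 to 2334 and 2742 to 4068.

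Of 8 further mast cell, basophil and eosinophil genes tested, 5 were highest in fl/fl replicate 1 and 0 were called. Their median log2 fold change was -0.71, but it came to 1.06 once fl/fl replicate 1 was dropped, to -1.40 once KO replicate 3 was, and to 0.35 once both were. Prss34, a protease of basophils, was at 1216, 229 and 993 in KO, against 7122, 364 and 21.2 in fl/fl, the order of Mcpt8. Epx, eosinophil peroxidase, picked after its values were seen, was at 1.18, 11.8 and 63.8 in KO, against 1328, 2.00 and 1.06 in fl/fl. Prg2 of the same list was also highest in fl/fl replicate 1, at 1830. Ccr3 and Il5ra of that list were both highest in fl/fl replicate 2. Ccr3 was at 16.5, 12.8 and 65.0 in KO, against 32.4, 95 and 69.9 in fl/fl. Il5ra, with a mean of 3.61 over all libraries, was not tested. Hdc, the enzyme that makes histamine, was instead at 928, 462 and 6760 in KO, against 1518, 425 and 187 in fl/fl, with KO replicate 3 highest and fl/fl replicate 3 lowest. The mast cell proteases Tpsab1, Tpsb2, Mcpt4 and Mcpt1 had 0 reads in every library. Of 12 lineage transcription factors, 4 were highest in KO replicate 3 and 0 were called, with Gata2 at 15553 to 19176 in KO and 16872 to 24709 in fl/fl, and Tcf3 at 9770 to 12031 in KO and 8175 to 12300 in fl/fl.

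Lists of platelet and vessel genes were read for the other cells a marrow sample could hold. Of 10 megakaryocyte and platelet genes, 1 was called, Itga2b (CD41), at 7124, 6866 and 4926 in KO, against 22127, 30328 and 20679 in fl/fl (log2 fold change -1.95, limma, adjusted p = 0.0195), where 0.73% of all genes were called. The call was lost without KO replicate 3, without fl/fl replicate 1 and without both, at -1.78, -2.01 and -1.84 (limma, adjusted p = 0.112, 0.0642 and 0.333), and it held in 11 of 18 alternatives (adjusted p = 5.35e-14 to 0.333). With the replicate block its adjusted p was 0.103 (limma). Pf4, platelet factor 4, was at 9549 to 27872 in KO and 17966 to 37480 in fl/fl. Pecam1 was at 2244 to 2710 in KO and 2246 to 2989 in fl/fl, and Emcn at 691 to 1020 and 681 to 1408, with 0 of 8 vessel and stroma genes called. KO replicate 3 was over 2-fold above every other library for 2 of these 8, against 2.66% of all genes tested. Of these, named after their values were seen, Col1a1 was at 47.3, 48.1 and 220 in KO, against 100, 27.0 and 0 in fl/fl. The other, Cdh5, was at 36.6 in KO replicate 3 and reached a mean of 10 only through it.

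Genes outside all of these lists were ranked by how far KO replicate 3 stood above the highest other library, among 10225 with at least 200 scaled counts there. The 10 highest were Cxcl2, Hcar2, Ldhc, Irg1, Trem1, Cldn1, Trp53inp2, Acvrl1, Gp49a and Il1b, with log2 excesses of 3.17 to 4.38. Cxcl2, a chemokine that attracts neutrophils, was at 73.3, 33.1 and 1540 in KO replicates 1 to 3, against 54.7, 17.0 and 18.0 in fl/fl replicates 1 to 3. Il1b, the cytokine interleukin-1 beta, was at 307, 119 and 2900 in KO, against 222, 213 and 322 in fl/fl. Trem1, a receptor of neutrophils and monocytes that amplifies inflammatory signals, was at 217, 129 and 4125 in KO, against 329, 185 and 9.53 in fl/fl. Of the 10225 genes, 218 were over 2-fold above every other library in KO replicate 3.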

How the data were processed

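RNA of 6 libraries was made into cDNA with SMART-Seq v4 and into libraries with Nextera XT, per the labels' protocols. Reads were aligned with STAR and counted with featureCounts on mm10, per the submitters' processing notes; the sources used here give neither versions nor the annotation. Read counts stand in the deposited fl/fl replicate 2 column. The other 5 deposited columns hold a scaled signal, counts multiplied by 44704636 over the library's total, per the file headers and the values. Undoing this gave whole reads for 100% of values (tolerance 1e-06). The deposited gene length served for levels per kilobase.

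The 14113 genes averaging 10 or more scaled counts were tested on log2(value + 1) with limma (trend, 4 residual degrees of freedom, both directions), with Benjamini-Hochberg adjustment over all of them and a threshold of 0.05. Folds on this scale understate changes of low genes. R 4.3.3, limma 3.58.1, edgeR 4.0.16, DESeq2 1.42.0, Python 3.11.15 and matplotlib 3.10.9 were used, and the fits were tested on simulated data.

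The members, the lists and the attention to KO replicate 3 were chosen with earlier results of these data known. Members reaching 100 scaled counts are given in every library; of other lists the 2 genes with the highest mean and genes past the threshold are named, and of genes in no list the 10 furthest above the other libraries in KO replicate 3. Some genes that this rule names are not reported here. The replicate error is that between pools of 2 mice. Chi-square per degree of freedom between libraries was 26.7 to 374, far above sampling noise. Coordinates are from GENCODE M21 (GRCm38), and 27 members had a RefSeq promoter. The alternatives changed the pseudocount, filter, scaling, tool, block and libraries.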

Additional observations from a re-analysis of the deposited data

How the results depend on the processing

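The count of 0 members called was the same in all alternatives run, with a lowest adjusted p of 0.0652 (Lck, DESeq2). The 103 genes called over all genes became 57 with median-of-ratios size factors, 67 with TMM factors, 60 by edgeR and 981 by DESeq2, and 3 to 378 without single libraries (3 without KO replicate 1 or 3, 19 without KO replicate 2, 7, 6 and 378 without fl/fl replicates 1, 2 and 3). With KO replicate 3 and fl/fl replicate 1 left out together, an alternative chosen after seeing the data, limma called 0 of 14113 genes, with 361 higher and 1124 lower at an unadjusted p of at most 0.05. The replicate block, which pairs libraries by the number in the labels, left 1 gene called and 0 members. The calls of Klf1 and Itga2b were lost under it and without any single library other than fl/fl replicate 3. Deviations of same-number libraries from their group means correlated at -0.14, 0.067 and -0.26 across genes. These values cannot decide whether the libraries are paired, because a single outlying library shifts the mean of its 3. The labels do not say what the shared title prefixes mark, so the main fit left the libraries unpaired. Of 514 member folds in alternatives 23 changed sign, 18 of them without a library. Of the others, Cd5 was at 0.12 with a pseudocount of 10, 0.74 by edgeR and 0.78 by DESeq2, and Mcpt8 at -0.79 by edgeR and -0.76 by DESeq2. With single libraries left out, log2 fold changes ran from -0.45 to 1.36 for Fcgr3, -0.52 to 0.85 for Lyz2, -0.21 to 2.84 for Cd14, -1.46 to 2.17 for Cd3e, -0.93 to 1.98 for Cd3d, -0.36 to 2.64 for Cd2, -1.53 to 1.16 for Cd5, -0.57 to 3.36 for Mcpt8 and -1.67 to 0.65 for Fcer1a. Without KO replicate 3 and fl/fl replicate 1 together they were -0.32 for Lyz2, -0.83 for Cd3e, -1.27 for Cd3d, -0.28 for Cd2, -2.48 for Cd5 and 0.071 for Fcer1a. A filter at a mean of 50 left 21 members, 11 of them highest in KO replicate 3, against 14.85% of all genes kept. It dropped the CD3 genes, Cd2, Cd5 and Klrd1, which had reached a mean of 10 only through KO replicate 3. Il2rb reached 50 only through that library. The log2 ratio of list sums, KO replicate 3 over the median of the other libraries, was, without the member of highest mean, 3.40 for the myeloid, 4.12 for the T cell, 2.87 for the NK and 1.28 for the B cell list, which was -0.12 with all members, because Lyz2, Lck, Nkg7 and Cd79b dominate these sums. Per kilobase the T cell ratio was 1.35. Low reads limit Pax5, Ebf1, Ms4a1, Klrd1 and the CD3 genes.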
